A study of Mus musculus with 12 samples.

Results

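Added NaCl was compared with none in mouse RAW264.7 macrophages that were all given LPS at 10 ng/ml for 24 h. LPS (lipopolysaccharide) is the outer membrane lipid of Gram-negative bacteria. The arrays are those titled HS+LPS and NS+LPS, 3 of each, so 6 of the 12 arrays of the series. The HS + LPS cells received 40 mM NaCl on top of LPS, and the NS + LPS cells received LPS alone. The other 6 arrays, HS and NS without LPS, enter the fit and are set beside these results at the end. The labels do not spell out HS and NS, which were read here from the series title as high salt and as the matching medium without added NaCl. RAW264.7 is a single transformed line, and the labels name no genetic change in it. The labels do not say that replicates came from separate cultures, so p-values reflect how these 6 arrays and their 6 companions scatter, possibly for technical reasons only.

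Macrophages detect LPS through Cd14, Ly96 and Tlr4, whose adaptors switch on the NF-kB and AP-1 transcription factors and, through interferon beta, a second wave of interferon-stimulated genes. A cell placed in hypertonic medium loses water, and the transcription factor Nfat5 then raises transporters and enzymes that load the cell with small organic osmolytes. NaCl also accumulates in inflamed skin and in the kidney medulla, where macrophages meet it together with microbial products.

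Levels below are log2 of the processed signal relative to the 75th percentile of the array, so a level of 0 is a probe as bright as that percentile. A log2 difference is HS + LPS minus NS + LPS, and a difference of 1 is a 2-fold change. Levels of different genes come from different probes and are not compared. The HS + LPS arrays were dimmer, with a 75th percentile of 428 ± 15.3 against 628 ± 6.84 (mean ± SD, n = 3 arrays each). Probes counted as well above background made up 44.2 ± 0.529% in HS + LPS and 47.8 ± 2.5% in NS + LPS. The part of brightness in the differences of dim genes was not tested, but normexp background correction, which shrinks differences of dim probes, is given beside a printed difference or fold that it moves by over 1.5 times. The HS + LPS arrays shared a slide and a scan day that no NS + LPS array had. In every difference between these groups below, salt, slide and scan day therefore cannot be told apart. NS + LPS replicates 1 and 2 shared a slide, and replicate 3 was on another. All 10 macrophage markers checked (Adgre1, Cd14, Cd68, Csf1r, Fcgr1, Itgam, Lyz2, Mpeg1, Spi1 and Tyrobp) were well above background on every array of both groups. Their summed signal, relative to the 75th percentile, was 1170 to 1220 in NS + LPS and 1340 to 1390 in HS + LPS. The T and NK cell list gave 14.8 to 15.6 against 16.5 to 17 with 4 of 9 members above background in both groups, with Cd3e, Cd4, Lck and Nkg7 among them. Of the dendritic cell list only Siglech was above background, and no muscle marker was. Neutrophil, B cell, fibroblast, epithelial, endothelial and erythroid lists had between 0 and 3 members above background in a group. In an RNA extract, a change in the number of cells of a type and a change of RNA per cell cannot be told apart.

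Of 13801 genes tested, 7939 (57.5%) passed an adjusted p of 0.05, 3611 higher (26.2%) and 4328 lower (31.4%) with added NaCl. A change of at least 2-fold was called for 857 genes (6.21%), 390 higher (2.83%) and 467 lower (3.38%). The 3 arrays of one group lay wholly above or below the 3 of the other for 8861 genes (64.2%). The median log2 difference of all genes was -0.043, and the median standard error (SE) of a difference was 0.066. A list of genes is read below against these shares. With normexp correction, 236 genes were at least 2-fold higher and 126 lower. Adjusted p-values are from limma's moderated test over all genes, and called, rose and fell refer to it.

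Messages of monocyte-attracting chemokines and of several cytokines were among the largest falls, while those of Tnf and the neutrophil attractant Cxcl2 were not lower. Ccl2, the main monocyte chemoattractant (chromosome 11, 81850650 to 81850709, mm9 probe coordinates), had levels of 8.14, 8.22 and 8.08 in NS + LPS and 3.34, 3.60 and 3.00 in HS + LPS. All 3 HS + LPS arrays lay far below all 3 NS + LPS arrays. The log2 difference was -4.83 (SE 0.14, adjusted p = 4.49e-08), a 28.5-fold lower signal. Its neighbour Ccl7 (81860656 to 81860715), another ligand of the receptor Ccr2, was at 1.60, 1.83 and 1.40 in NS + LPS and was not well above background on any HS + LPS array. Ccl7 was at least 56.0-fold lower. Such an at-least fold sets the mean of the brighter group against, per array of the dimmer group, the higher of the probe's own signal and the lowest signal that counted as well above background. With normexp correction its log2 difference was -3.80. Ccl12, another chemokine of this cluster, was at least 3.57-fold lower by the same rule, and its log2 difference with normexp correction was -0.70.

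**Figure D1:**
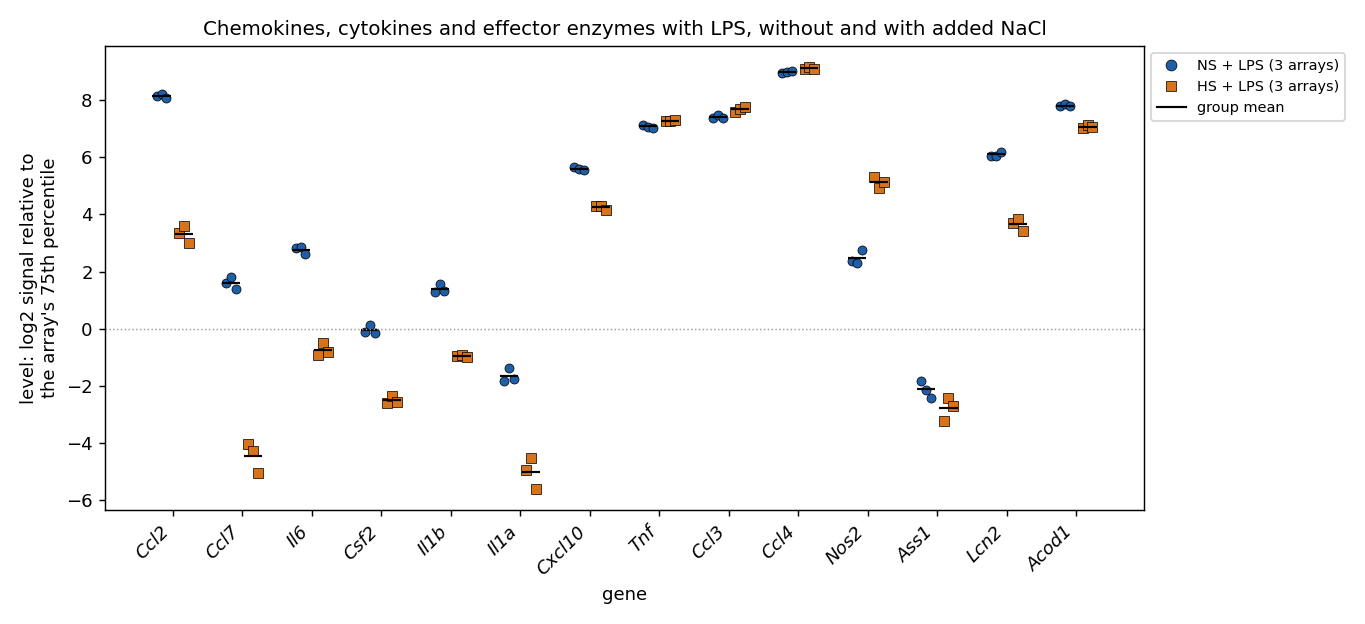
Levels of 14 chemokine, cytokine and effector genes (log2 signal relative to the 75th percentile of the array, y axis) on the 3 NS + LPS arrays (circles) and the 3 HS + LPS arrays (squares), with group means as lines. Ccl2, Ccl7, Il6, Csf2, Il1b, Il1a, Cxcl10 and Lcn2 are lower and Nos2 is higher with added NaCl, while Tnf, Ccl3 and Ccl4 differ by 0.20, 0.25 and 0.14.

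Of 9 measured CC chemokine genes, 6 fell and 2 rose, with a list median of -0.687. Only 6 of the 9 were well above background on all arrays of both groups. Ccl7 and Ccl12, counted among the falls, passed the filter through the NS + LPS arrays, where they are high. Ccl6 fell by 1.44 on the log2 scale, Ccl5, which attracts T cells, by 0.69 and Ccl9 by 0.50. Ccl3 and Ccl4 went the other way by small amounts, 0.25 (SE 0.070) and 0.14 (SE 0.052). The Ccl4 difference turned to -0.087 with quantile normalization and was 0.065, not called, with normexp correction, and its call was lost in 5 of the 6 fits that left out an array, all but the one without NS + LPS replicate 3. Without NS + LPS replicate 1, the CC list median moved to -1.045. Cxcl10, an interferon-induced attractant of T cells, had levels of 5.66, 5.57 and 5.55 in NS + LPS and 4.28, 4.31 and 4.17 in HS + LPS. These ranges do not overlap, and the difference was -1.34 (SE 0.054, 2.53-fold). Cxcl16, the membrane-bound chemokine that also takes up oxidized lipoproteins, rose from -0.44, -0.46 and -0.31 to 0.67, 0.62 and 0.79, a difference of 1.10 (SE 0.055). Cxcl2, a neutrophil attractant, was not called (0.15, adjusted p = 0.606).

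Among secreted cytokines, Il6 (chromosome 5, 30346367 to 30346426), the inducer of the acute-phase response, fell most. Its levels were 2.81, 2.86 and 2.63 in NS + LPS and -0.92, -0.48 and -0.83 in HS + LPS, which is 11.4-fold lower (log2 difference -3.51, SE 0.18, adjusted p = 3.02e-07). Csf2 (GM-CSF) fell from -0.13, 0.12 and -0.14 to -2.60, -2.37 and -2.55, 5.49-fold. Csf1, the macrophage growth factor, was at -0.14, 0.017 and 0.0012 without and -1.58, -1.80 and -1.74 with added NaCl, a log2 difference of -1.66 (SE 0.20). Both colony-stimulating factors were therefore lower on every HS + LPS array. Tnfsf10 (TRAIL), a death ligand, was well above background only without added NaCl and at least 3.41-fold lower with it. Il23a, a subunit of interleukin 23, was at least 3.52-fold lower. With normexp correction the log2 differences were -0.73 for Tnfsf10 and -0.55 for Il23a. The interleukin 27 subunits Il27 and Ebi3 fell by 1.10 and 0.32.

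Tnf itself did not share these falls. Its levels were 7.12, 7.07 and 7.03 in NS + LPS and 7.26, 7.25 and 7.31 in HS + LPS, which is 1.15-fold higher (log2 difference 0.20, SE 0.043, adjusted p = 0.00278). With normexp correction the Tnf difference was 0.13. Cytokines that rose were Vegfa, the vascular growth factor (0.86), Gdf15, a stress-induced hormone (0.84), the 4-1BB ligand Tnfsf9 (0.80), Tnfsf14 (0.38) and Hbegf (0.35). Of 21 members measured, 10 fell, 6 of them at least 2-fold, and 8 rose, none 2-fold. The list median of -0.085 was close to that of all genes. Among the 15 members above background on all 12 arrays, 5 were lower.

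In the interleukin 1 family, both agonists fell. Il1b was at 1.29, 1.55 and 1.33 in NS + LPS and -0.95, -0.92 and -1.0 in HS + LPS, 5.09-fold lower (-2.35, SE 0.084). Il1a was above background only without added NaCl and was at least 6.24-fold lower (log2 difference -1.06 with normexp correction), while the antagonist Il1rn was not called (0.10, adjusted p = 0.82). Il18, the sensor Nlrp3, its adaptor Pycard and the proteases Casp1 and Casp4, which process or release these cytokines, fell by 0.30, 0.39, 0.62, 0.62 and 0.43. Pycard stood at -0.21 with normexp correction. The DNA sensor Aim2 (0.45) and the pore-former Gsdmd (0.20) rose. In all, 11 of 17 measured members fell and 3 rose. The share that fell, 64.7%, stands beside 31.4% of all genes.

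Of 27 cytokine and growth factor receptor genes measured, 12 fell and 5 rose, with a median of -0.044. Tnfrsf1b, the second TNF receptor, fell from 0.47, 0.62 and 0.54 to -0.81, -0.91 and -1.13 (-1.49, SE 0.15). The TGF-beta receptor Tgfbr2 rose by 1.04 (SE 0.069). Epha2, an ephrin receptor kinase, rose from -0.92, -0.89 and -0.70 to 2.82, 2.51 and 3.03, 12.3-fold. The interferon receptor chains Ifnar1, Ifnar2, Ifngr1 and Ifngr2 fell by 0.46, 0.49, 0.43 and 0.43. The CSF1 receptor Csf1r rose by 0.60, opposite to its ligand Csf1.

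Effector enzymes of activated macrophages also moved in both directions. Nos2, the inducible nitric oxide synthase (chromosome 11, 78773567 to 78773626), had levels of 2.37, 2.31 and 2.74 in NS + LPS and 5.30, 4.93 and 5.13 in HS + LPS. Every HS + LPS array was above every NS + LPS array, and Nos2 was 6.24-fold higher (2.64, SE 0.13, adjusted p = 2.72e-07). Gch1, the first enzyme of tetrahydrobiopterin synthesis, was at 6.30, 6.26 and 6.23 and then 5.70, 5.74 and 5.58, a difference of -0.59 (-0.97 with the mean of its probes), and Pts, the next enzyme, fell by 0.38. Ass1, which recycles citrulline to arginine, fell by 0.67 (SE 0.19, adjusted p = 0.0137), a call lost without NS + LPS replicate 1 (-0.52), with normexp correction (-0.18), with cyclic loess (-0.49) and in a fit of these 6 arrays alone. The arginine transporter Slc7a1 fell by 0.35. Of the 13 genes measured in this group, 7 fell and 4 rose. Sat1, an enzyme of polyamine turnover, rose by 0.48. Qdpr, which regenerates tetrahydrobiopterin, rose by 0.098, a call lost under 10 alternatives, with -0.0054 after normexp correction. Spr, which completes tetrahydrobiopterin synthesis, was not called (-0.061). Arg1 did not pass the filter on dim probes.

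Antimicrobial proteins were mostly lower. Lcn2, lipocalin 2, which binds bacterial siderophores, fell from 6.06, 6.04 and 6.18 to 3.69, 3.82 and 3.43, 5.46-fold (-2.45, SE 0.092). Acod1, which makes itaconate, was at 7.79, 7.84 and 7.77 in NS + LPS and 7.02, 7.13 and 7.04 in HS + LPS, a difference of -0.74 (SE 0.052). S100a8 fell by 1.03, the acute-phase protein Saa3 by 0.88 and Cybb, the catalytic subunit of the phagocyte NADPH oxidase, by 0.77. Against these, the oxidase organizer Ncf1 rose by 0.71 and lysozyme Lyz2 by 0.49. The list counted 10 lower and 5 higher of 19, Nos2 among the latter.

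The LPS sensing machinery changed by less than 2-fold throughout. Of 23 measured genes, 7 fell, 9 rose and 7 were not called, and the median was 0.067. Tlr4 was at 2.32, 2.25 and 2.24 and 1.89, 2.01 and 1.86 and fell by 0.35, and its partner Ly96 fell by 0.45. Tlr2 and its partners Tlr1 and Tlr6 fell by 0.39, 0.81 and 0.32. Cd14 rose by 0.18, but it stood at 0.056 with quantile normalization and was then not called, and at 0.12 with normexp correction. Irak3, an inhibitor of this pathway, fell by 0.97, and the kinase Map3k8 rose by 0.46.

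Among NF-kB subunits and their regulators, 9 of 23 fell and 7 rose. The members that fell most were Ikbke (-0.82), Tnfaip3 (A20, -0.73), Nfkb2 (-0.67), Relb (-0.56), Traf1 (-0.49) and Nfkbie (-0.42), which NF-kB itself is known to induce. Nfkbia, the main cytoplasmic inhibitor and also an NF-kB target, rose by 0.25, and Rela was not called (0.077). Without NS + LPS replicate 1, 4 members were called higher in place of 7.

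Feedback phosphatases and STAT inhibitors went both ways. Cish fell by 1.15, Dusp1 by 0.81, Socs1 by 0.69 and Socs3 by 0.47, whereas Dusp2 rose by 1.05, Dusp14 by 0.76 and Socs5 by 0.64. The totals were 6 lower and 5 higher of 16. In the AP-1, EGR and immediate-early group the largest rise was that of Ier3, an NF-kB-induced survival gene, from 4.22, 4.15 and 4.23 to 6.07, 6.07 and 6.28 (1.94, SE 0.11). Nr4a1 and Fosl2 rose by 0.87 and 0.76, and Myc, Ier2, Atf3 and Jun fell by 0.83, 0.49, 0.47 and 0.30. That group counted 8 lower and 5 higher of 21, with 8 higher after cyclic loess normalization. Of the proteins that destabilize cytokine messages, Zfp36l1 rose most, from 0.98, 1.07 and 1.13 to 2.60, 2.31 and 2.73 (1.49, SE 0.098). Zc3h12d and Rc3h1 (roquin 1) rose by 0.86 and 0.52, and the group had 5 of 11 members higher and 2 lower.

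Interferon-stimulated genes, the antiviral set induced by interferon beta after LPS, were mostly lower with added NaCl. Many carry in their promoter an interferon-stimulated response element, searched here as GAAA repeated after 2 bases of any kind, on both strands. Of 40 RefSeq promoters of these genes (GRCm38.p6, 250 bases before to 50 after the start, 34 of 45 genes matched), 18 (45%) held it, against 3.44% of 32851 promoters. The windows of Rsad2 and Ifit3, which are among the 11 promoters holding it of genes that fell, show it in capitals, read on the other strand where the letters are TTTC.
Rsad2: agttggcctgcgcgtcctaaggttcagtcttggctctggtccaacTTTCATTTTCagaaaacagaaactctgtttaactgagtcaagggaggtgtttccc
Ifit3: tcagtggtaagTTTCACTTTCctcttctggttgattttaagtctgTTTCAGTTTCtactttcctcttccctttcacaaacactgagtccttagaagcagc
The Rsad2 window is chr12:26456518-26456617 on the minus strand, from -165 to -66 of the start. That of Ifit3 is chr19:34583362-34583461 on the plus strand, from -167 to -68, and holds 2 copies. The match is a description of the letters only.

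Rsad2 (viperin), which makes an antiviral nucleotide, had levels of 6.67, 6.59 and 6.63 in NS + LPS and 5.15, 5.20 and 5.20 in HS + LPS. It fell by 1.45 (SE 0.035, 2.73-fold), and its genomic neighbour Cmpk2, which feeds it with nucleotides, by 1.03. Mx1, an antiviral GTPase, was at 3.59, 3.44 and 3.53 without and 2.01, 2.05 and 1.82 with added NaCl, 2.94-fold lower. Both genes separated the groups completely. The RNA-binding Ifit3, Ifit1 and Ifit2 fell by 0.89, 0.69 and 0.40, and the OAS-like Oasl1 and Oasl2 by 0.53 and 0.58. The Schlafen genes Slfn8, Slfn1 and Slfn2 fell by 0.83, 0.73 and 0.61. For Slfn1, normexp correction gave -0.30 and cyclic loess -0.38. Of 45 genes, all measured, 30 fell, 4 rose and 11 were not called. The median was -0.299, and 66.7% lower stands beside 31.4% of all genes. Isg15, the ubiquitin-like member, was not called (-0.13, adjusted p = 0.149), and Bst2, Isg20 and Lgals3bp rose by 0.27, 0.24 and 0.24.

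The upstream genes did not move as one. Ifnb1, interferon beta, was at 0.069, -0.26 and -0.032 and 0.34, 0.41 and 0.40, a rise of 0.46 (SE 0.097, adjusted p = 0.00266), which cyclic loess put at 0.76. Irf7, which amplifies interferon production, rose by 0.35. Irf1, Irf2 and the kinase Jak1 fell by 0.55, 0.40 and 0.36. Irf4 fell by 0.81, or -0.15 with normexp correction.

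The guanylate-binding proteins and immunity-related GTPases, which attack vacuoles that hold microbes, were lower as a group: 11 of 13 measured fell, with a median of -0.827. Gbp2 (chromosome 3, 142300719 to 142300778) was at 0.0056, -0.0025 and 0.0063 in NS + LPS and -2.75, -2.31 and -2.59 in HS + LPS, 5.86-fold lower. Tgtp2, Iigp1 and Gbp3 fell by 1.39, 1.27 and 1.14, and Irgm1, Irgm2 and Igtp by 0.35, 0.59 and 0.53. With normexp correction the Iigp1 difference was -0.67. Gbp5, which promotes inflammasome assembly, was the member that rose (0.24), a call that leave-outs of HS + LPS replicate 1 or NS + LPS replicates 1 or 3 ended and that turned to -1.24 with the mean of its probes. These genes are close paralogs, and probes may read more than one of them.

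Antigen presentation genes divided by class. In MHC class II, which shows peptides to helper T cells, 5 of 6 measured members rose and only the protease Ctss fell (-0.22, or -0.42 with normexp correction). H2-Ab1 was at -2.48, -2.70 and -2.56 in NS + LPS and -1.66, -1.75 and -1.67 in HS + LPS (0.89, SE 0.067). H2-Oa, which modulates peptide loading, rose from -2.21, -2.10 and -2.21 to -0.41, -0.50 and -0.56, 3.22-fold. Both separated the groups. The invariant chain Cd74 and the loading chain H2-DMa rose by 0.52 and 0.64. H2-Eb1 is counted with them although it was well above background on no array of either group, so no fold is given for it. The other 4 members did not pass the filter.

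In the class I pathway, which displays peptides to cytotoxic T cells, H2-K1, H2-D1 and B2m were not called (-0.095, -0.051 and -0.024). The peptide transporter Tap1, the trimming enzyme Erap1, the editor Tapbpl and the immunoproteasome subunits Psmb9 and Psmb10 fell by 0.44, 0.72, 0.78, 0.54 and 0.32. With normexp correction Erap1 stood at -0.42. H2-M3, a nonclassical molecule for formylated peptides, rose by 1.09 and Tapbp (tapasin) by 0.52. Of 19 members, 8 fell and 5 rose.

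Of the costimulatory and checkpoint molecules, Cd40, which receives the T cell help signal, changed most. Its levels were 1.5, 1.5 and 1.36 in NS + LPS and -0.31, -0.0075 and -0.13 in HS + LPS, 3.03-fold lower (-1.60, SE 0.14). The checkpoint ligand Cd274 (PD-L1) fell by 0.78 and Icosl by 0.50. Havcr2 (TIM-3) and Vsir (VISTA) rose by 0.92 and 0.78, and Cd80 was not called (0.078). In this list 5 of 12 fell and 3 rose.

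**Figure D2:**
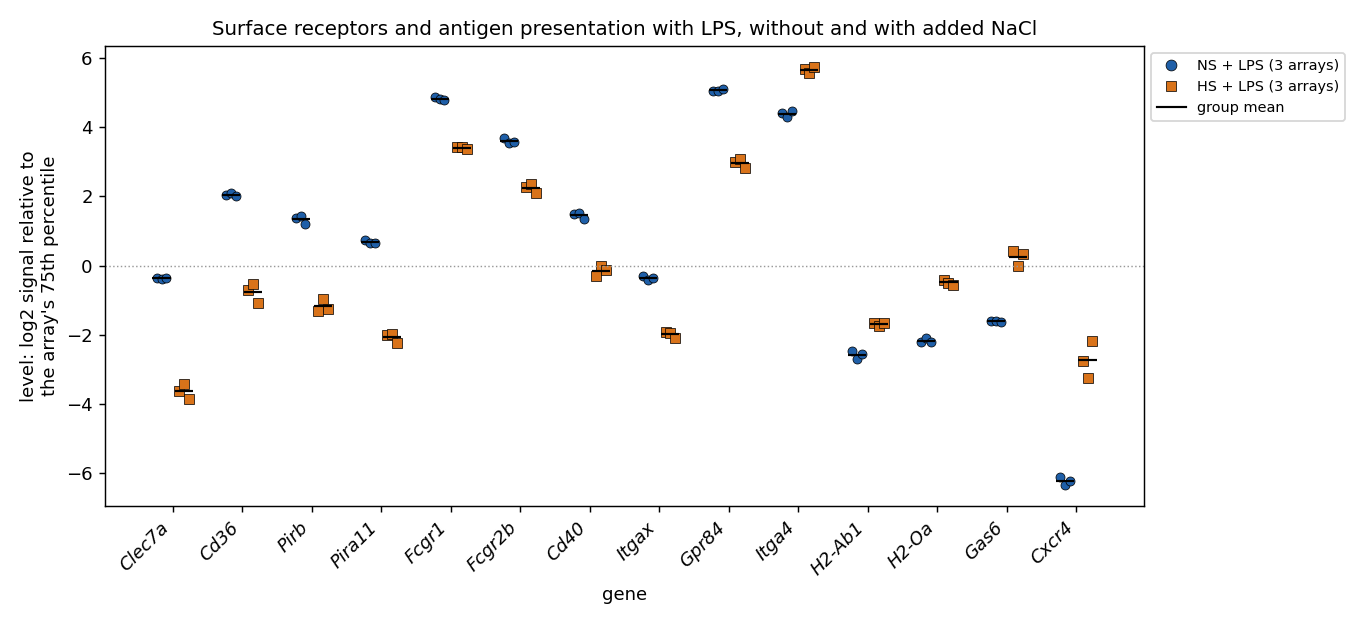
Levels of 14 surface receptor and antigen presentation genes (log2 signal relative to the 75th percentile of the array, y axis) on the 3 NS + LPS arrays (circles) and the 3 HS + LPS arrays (squares), with group means as lines. Clec7a, Cd36, the paired receptors Pirb and Pira11, Fcgr1, Fcgr2b, Cd40, Itgax and Gpr84 are lower with added NaCl, and Itga4, H2-Ab1, H2-Oa, Gas6 and Cxcr4 are higher.

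Receptors for fungal, lipid and other microbial ligands were mostly lower. Clec7a (dectin-1), the receptor for fungal beta-glucan, fell from -0.37, -0.38 and -0.37 to -3.63, -3.44 and -3.85, 9.62-fold (-3.27, SE 0.16), or -1.93 with normexp correction. Cd36, the scavenger receptor for oxidized lipoproteins, was at 2.03, 2.08 and 2.02 without and -0.69, -0.54 and -1.10 with added NaCl, 7.07-fold lower. No HS + LPS array reached the NS + LPS range of either gene. Msr1, Cd5l and the lectin Clec4n (dectin-2) fell by 0.83, 1.09 and 0.88. Marco was well above background only without added NaCl and at least 1.91-fold lower, but its difference with normexp correction was -0.050 and not called. Of 19 members, 11 fell and 2 rose.

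The paired immunoglobulin-like receptors, activating Pira and inhibitory Pirb forms that recognise MHC class I, fell. Pirb was at 1.37, 1.43 and 1.2 in NS + LPS and -1.30, -0.97 and -1.26 in HS + LPS, 5.68-fold lower. Pira11, Pira7, Lilra6 and Pira6 fell, with log2 differences of -2.75, -2.66, -2.52 and -2.27, and so did Pira2 (-2.87, or -1.45 with normexp correction). These genes are near-identical copies, so their probes may share transcripts and their values are not independent. Outside that cluster, the lipid receptor Trem2 fell by 1.24 and Cd300lf by 1.30, while Trem1 rose by 0.47. The list had 11 lower and 2 higher of 19.

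In the joint list of antibody receptors and dead-cell uptake, 7 of 15 measured members rose and 5 fell, with a median of 0.011. Fcgr1, the high-affinity IgG receptor, went from 4.87, 4.81 and 4.79 to 3.43, 3.44 and 3.35 (-1.42, SE 0.055). Fcgr2b and Fcgr3 fell by 1.37 and 0.98. Gas6, which bridges phosphatidylserine to the receptors Axl and Tyro3, rose from -1.60, -1.60 and -1.63 to 0.41, -0.0009 and 0.34, 3.62-fold. The other bridging proteins Mfge8 and Pros1 rose by 0.79 and 0.70, the receptors Axl and Tyro3 by 0.40 and 0.41, and the integrin chains Itgav and Itgb5 by 0.79 and 0.48. The uptake genes Rac1, Elmo1 and Dock1, which reshape the cytoskeleton, were not called (0.011, -0.052 and -0.063). Without NS + LPS replicate 3 or HS + LPS replicate 1, 3 were lower, Fcgr4 and Fcer1g (-0.29 and -0.14) being the small members lost. Fcer1g stood at -0.24 with normexp correction.

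Complement genes were mostly lower, 8 of 12, with a median of -0.563. The anaphylatoxin receptors C3ar1 and C5ar1 fell by 1.17 and 0.58, the latter -0.32 with normexp correction, and the protease C1ra by 1.06. Itgax, the alpha chain of complement receptor 4, fell by 1.63, while Itgam, the alpha chain of complement receptor 3, rose by 0.25. Among integrins, Itga4, a chain of the VCAM-1 receptor, rose from 4.40, 4.30 and 4.46 to 5.67, 5.56 and 5.74 (1.27, SE 0.066), and Itgb7 and the hyaluronan receptor Cd44 fell by 0.85 and 0.62. As many integrin and adhesion genes rose (8) as fell (8) of 17.

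G-protein-coupled receptors and their RGS regulators had 17 of 28 members lower and 9 higher. Only 22 of the 28 were well above background on all arrays of both groups. The counts include members that passed the filter through 1 group only, with Ccr2 and Fpr2 among the falls and Cxcr4 among the rises. Cxcr4, the receptor for CXCL12, was well above background only with added NaCl, at -2.75, -3.26 and -2.19, and at least 3.04-fold higher. Ccr2, the receptor for Ccl2 and Ccl7, was well above background only without added NaCl, at -2.95, -3.09 and -3.25, and at least 2.41-fold lower. With normexp correction the differences were 1.19 and -0.49. Gpr84, a receptor for medium-chain fatty acids that LPS induces, fell from 5.04, 5.05 and 5.10 to 3.00, 3.07 and 2.81, 4.31-fold. Rgs2 fell by 2.00 (-1.17 with the mean of its probes) and Rgs1 by 1.57, while Rgs16 rose by 1.37. The formyl peptide receptor Fpr2 was at least 3.68-fold lower (-0.55 with normexp correction), and the chemerin-binding Ccrl2 fell by 1.21.

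Genes of lipid mediator synthesis moved in both directions. Alox5, the 5-lipoxygenase that starts leukotriene synthesis, rose from 1.97, 1.98 and 1.96 to 3.56, 3.41 and 3.57, 2.92-fold (SE 0.046 on the log2 scale). Ltc4s, which makes leukotriene C4, rose from 1.04, 0.93 and 0.97 to 2.52, 2.38 and 2.59, 2.86-fold. The constitutive and inducible cyclooxygenases Ptgs1 and Ptgs2 rose by 0.99 and 0.46. Ptgs2 levels were 3.68, 3.72 and 3.64 in NS + LPS and 4.17, 4.04 and 4.23 in HS + LPS. The thromboxane synthase Tbxas1 fell by 1.21 (-0.45 with normexp correction), and Ptges, the inducible prostaglandin E synthase, by 0.15. The list had 5 of 15 members higher and 5 lower, and 3 lower without NS + LPS replicate 1 or HS + LPS replicate 3.

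Most tonicity genes rose in LPS-treated cells. Slc6a12, the betaine transporter, was at 4.23, 3.93 and 4.37 in NS + LPS and 7.54, 7.37 and 7.58 in HS + LPS, 10.0-fold higher (3.32, SE 0.14). Slc5a3, the inositol transporter, rose from 0.16, 0.11 and 0.25 to 2.54, 2.37 and 2.63 and Akr1b3, which converts glucose to sorbitol, from 6.63, 6.48 and 6.6 to 8.89, 8.78 and 9.01. These are 5.07-fold and 5.01-fold changes. Nfat5 itself rose by 0.90 (SE 0.060), the taurine transporter Slc6a6 by 0.64, the water channel Aqp1 by 1.98 and the chaperone Hspa4l by 2.19. Pnpla6, which makes the osmolyte glycerophosphocholine, rose by 1.18. The creatine transporter Slc6a8 fell by 0.58, and the kinase Sgk1 was not called (-0.0003). In sum 10 of 14 measured members rose, 7 of them at least 2-fold, and the median was 1.04.

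Of 28 measured ion transporters and volume channels, 10 rose and 6 fell, with a median of 0.054. The sodium pump beta subunit Atp1b3 rose by 0.59 (SE 0.082). The chloride channel Clcn3 and the cation-chloride cotransporters Slc12a9 and Slc12a4 rose by 0.53, 0.40 and 0.30. The list ranged from -1.311 to 0.585, with 1 member called at least 2-fold lower and 0 at least 2-fold higher. Kcnk13 and Kcnn4 were lower under every alternative run, at -0.53 to -0.45 and -0.42 to -0.31. Slc8a1 was called lower too, but ranged from -1.77 to -0.055 over the alternatives, and 1 of them lost the call. The anion channel subunits Lrrc8a, Lrrc8b, Lrrc8d and Lrrc8e were not called, at between -0.084 and 0.12.

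Glycolysis genes were higher as a block. The pathway splits glucose to pyruvate and lactate, and LPS-activated macrophages are known to rely on it. Of 24 measured genes, 20 rose, 0 fell and 4 were not called, with a median of 0.373. The 83.3% that rose stands beside 26.2% of all genes. Eno2, an enolase, rose most, from 1.47, 1.32 and 1.44 to 3.12, 2.73 and 3.09 (1.57, SE 0.099, 2.96-fold). Pfkfb3, which makes the activator of phosphofructokinase, went from 1.44, 1.40 and 1.5 to 2.73, 2.56 and 2.81 (1.25, SE 0.068). No HS + LPS array of Eno2 or Pfkfb3 fell within the NS + LPS range.

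The phosphofructokinases Pfkm, Pfkl and Pfkp rose by 1.05, 0.89 and 0.65 (Pfkp 0.35 with the mean of its probes), aldolase C (Aldoc) by 1.00, pyruvate kinase Pkm by 0.78 and lactate dehydrogenase Ldha by 0.43. The glucose transporter Slc2a3 and the lactate carrier Slc16a1 were not called (-0.097 and -0.16), while the lactate exporter Slc16a3 rose by 0.38. Gapdh was at 9.0, 8.98 and 9.10 and 9.37, 9.40 and 9.40, a rise of 0.36 (SE 0.062). The smaller rises depend on the scaling. With quantile normalization Gapdh stood at 0.081 (adjusted p = 0.124), Eno1 at 0.082 and Aldoa at 0.033, all not called, and Ldha at 0.15. Eno1 was not called with normexp correction either (0.12). The list then had 18 members higher and a median of 0.252.

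In the list of hypoxia-inducible factor 1 (HIF-1) targets and regulators, 18 of 24 genes were higher and 1 lower, with a median of 0.444. Hif1a and Epas1 among the higher members and Arnt, the lower one, encode HIF subunits, and Hif1an, Vhl and Egln2 are regulators. The core of the HIF-1 element was searched as ACGTG on both strands. It was present in 11 of 25 promoters of the list (44%, 20 of 24 genes matched), against 19.6% of 32851. The windows of Egln3 and Ddit4, the members that rose most, are shown with the letters in capitals.
Egln3: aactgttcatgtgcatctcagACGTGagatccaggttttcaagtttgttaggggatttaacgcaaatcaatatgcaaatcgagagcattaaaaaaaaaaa
Ddit4: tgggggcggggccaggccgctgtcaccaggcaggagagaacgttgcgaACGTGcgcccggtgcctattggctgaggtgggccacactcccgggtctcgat
The Egln3 window is chr12:54204025-54204124 on the minus strand, from -250 to -151 of the start, and the Ddit4 window chr10:59951906-59952005 on the minus strand, from -235 to -136.

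Egln3, a prolyl hydroxylase that marks HIF-1 for destruction and is itself a target of it, was at -0.91, -0.84 and -0.80 in NS + LPS and 0.83, 0.64 and 0.83 in HS + LPS, 3.06-fold higher (1.61, SE 0.090). Ddit4 (REDD1), an inhibitor of mTORC1, rose from 3.69, 3.72 and 3.78 to 5.48, 5.24 and 5.23, 3.00-fold. Both groups were fully separate for each. The mitophagy receptors Bnip3 and Bnip3l rose by 1.18 and 0.83, Ankrd37 by 1.10, the glycogen synthase Gys1 by 0.70 and Pdk1, which blocks pyruvate entry to the TCA cycle, by 0.61. Hif1a rose by 0.35 (SE 0.084), but its probes disagreed and their mean gave -0.18, not called. Vhl and Egln2, which act on HIF-1 without being strongly induced by it, were not called (-0.089 and -0.056).

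**Figure D3:**
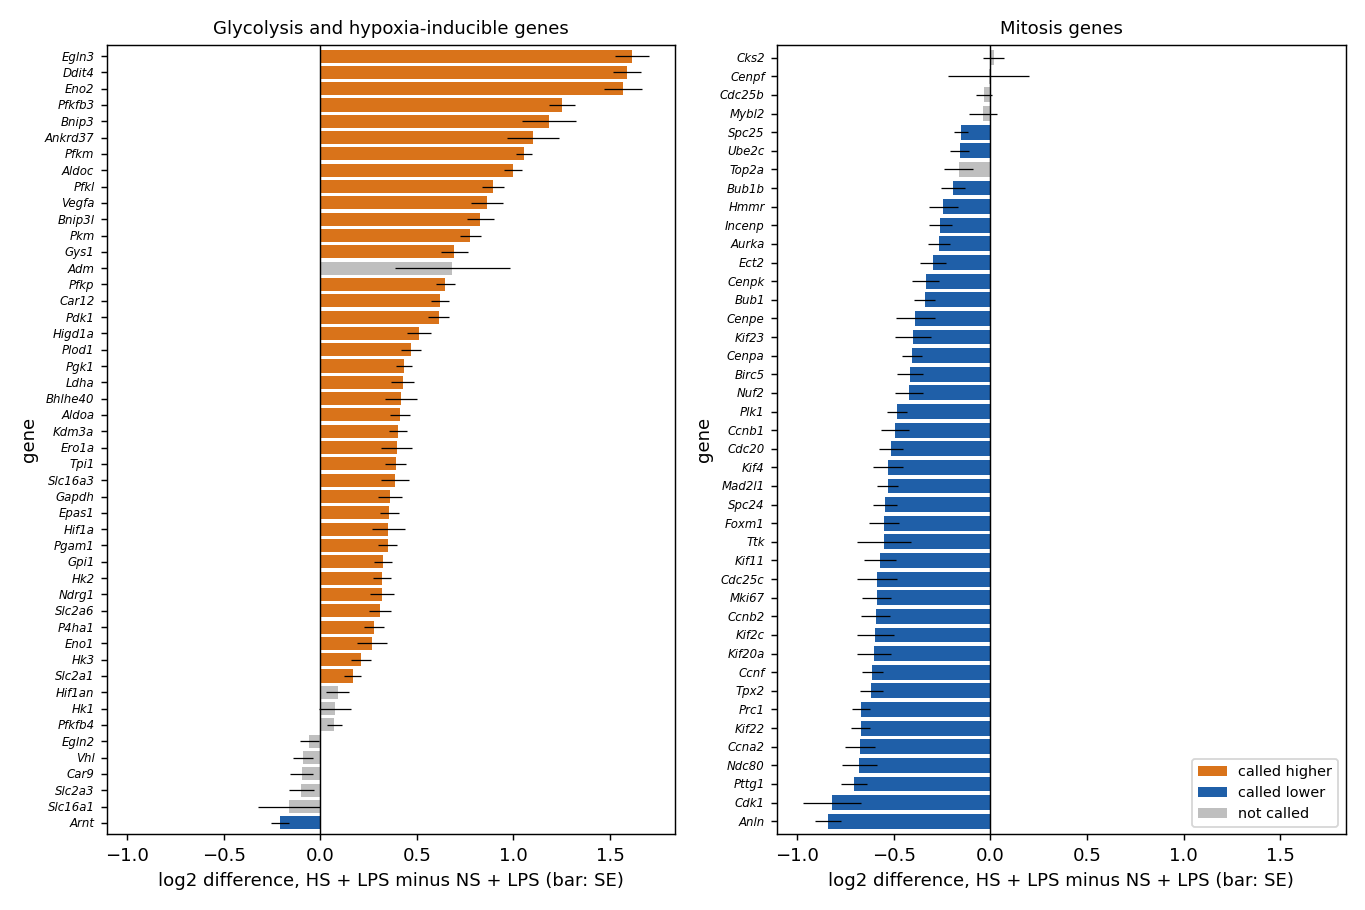
Log2 difference, HS + LPS minus NS + LPS, of each measured glycolysis and hypoxia gene (left) and mitosis gene (right), with the SE of the fit as error bar and 3 arrays a group. On the left, bars reach 1.61 for Egln3 and every called member except Arnt is higher, and on the right 37 of 42 bars are called lower, down to -0.84 for Anln.

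In the TCA cycle, 9 of 26 genes rose and 2 fell, the latter Acod1 and Fh1 (-0.31). Idh1, the cytosolic NADPH-producing isocitrate dehydrogenase, rose most, from -0.20, -0.29 and -0.21 to 0.75, 0.71 and 0.91 (1.02, SE 0.069). Pyruvate carboxylase Pcx, the citrate carrier Slc25a1 and the ATP citrate lyase Acly rose by 0.75, 0.56 and 0.38. Of 38 respiratory chain genes 26 were not called, and the range was -0.33 to 0.24. With normexp correction or cyclic loess, 13 were lower in place of 8. In sterol and fatty acid synthesis 19 of 34 genes rose and 2 fell, with Tm7sf2 at 0.85, Mvd at 0.65 and Elovl6 at 0.52. Normexp correction gave 7 lower there.

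In the pentose phosphate and nucleotide list, 16 of 29 fell and 3 rose. Upp1, a uridine phosphorylase that LPS induces, fell from 4.78, 4.76 and 4.69 to 2.84, 3.07 and 2.77, 3.60-fold. Mthfd2, a mitochondrial folate enzyme, fell by 0.90, and transketolase Tkt rose by 0.33. The ribonucleotide reductase subunits Rrm1 and Rrm2, which supply DNA synthesis, fell by 0.48 and 0.40.

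Most genes of cell division were lower, by modest amounts. Of 42 measured mitosis genes, 37 fell (88.1% beside 31.4% of all genes) and 0 rose, with a median of -0.504 and none 2-fold lower. Of 41 DNA replication genes, 28 fell and 2 rose, with a median of -0.322. Mitosis promoters often carry the cell cycle homology region TTTGAA, and replication promoters the E2F site TTTGGCGC or TTTCGCGC. Here TTTGAA was in 26 of 39 mitosis promoters (66.7%) and 6 of 39 replication promoters (15.4%), against 17.9% of 32851. The E2F letters were in 11 of 39 replication promoters (28.2%) and 1 of 39 mitosis promoters (2.56%), against 0.813% of all. Both were read on both strands, 35 of 42 mitosis genes and 33 of 41 replication genes matched, and these motifs do not overlap each other. The 100 bases of 4 genes that fell are shown to place these letters, in capitals, where the other strand reads TTCAAA and GCGCCAAA.
Cdk1: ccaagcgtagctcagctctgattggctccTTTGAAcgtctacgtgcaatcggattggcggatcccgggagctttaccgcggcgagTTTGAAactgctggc
Kif22: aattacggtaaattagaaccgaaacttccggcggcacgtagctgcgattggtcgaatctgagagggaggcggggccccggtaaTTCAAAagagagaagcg
Rfc3: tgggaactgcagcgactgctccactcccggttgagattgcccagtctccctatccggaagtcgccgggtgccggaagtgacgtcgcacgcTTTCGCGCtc
Pola1: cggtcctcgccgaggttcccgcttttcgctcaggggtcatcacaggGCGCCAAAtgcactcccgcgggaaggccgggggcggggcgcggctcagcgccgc
All 4 are on the minus strand of GRCm38.p6. Cdk1 is chr10:69352913-69353012 and Kif22 chr7:127042421-127042520, both from -100 to -1 of the start. Rfc3 is chr5:151651209-151651308, from -100 to -1, and Pola1 chrX:93632240-93632339, from -184 to -85.

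Anln, which organises the cleavage furrow, had levels of 4.20, 4.13 and 4.06 in NS + LPS and 3.27, 3.41 and 3.20 in HS + LPS (-0.84, SE 0.066). Cdk1, the kinase that drives entry to mitosis, fell by 0.82 (SE 0.15), from -2.23, -2.46 and -2.60 to -3.61, -2.97 and -3.17, or -0.26 with normexp correction. Its cyclins Ccna2, Ccnb1 and Ccnb2 fell by 0.68, 0.49 and 0.59. The kinesin Kif22, the spindle factors Tpx2 and Ndc80, the proliferation marker Mki67 and the transcription factor Foxm1 fell by 0.67, 0.62, 0.68, 0.59 and 0.55. Top2a and Cks2 were not called (-0.16 and 0.016).

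In replication, Cdc6, which loads the MCM helicase, fell from -0.78, -0.72 and -0.70 to -1.92, -1.54 and -1.52 (-0.93, SE 0.11, or -0.62 with the mean of its probes). The clamp loader subunit Rfc3 and the primase-polymerase Pola1 fell by 0.80 and 0.65, the helicase subunits Mcm5, Mcm7 and Mcm2 by 0.41, 0.34 and 0.34, and the GINS subunits Gins2 and Gins1 by 0.61 and 0.55. Pcna and the cyclin Ccne1 rose by 0.17 and 0.15. The Pcna difference was 0.059 with normexp correction, and that of Ccne1 was 0.10 and not called. The Ccne1 call was also lost in 4 of the 6 fits that left out an array, those without replicate 1 or 2 of either group.

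Genes known as p53 targets or as brakes on the cell cycle were mostly higher, 16 of 26, with a median of 0.488. Trp53inp1, a p53 cofactor, rose from -0.94, -1.14 and -1.16 to 1.34, 1.01 and 1.41, 5.04-fold. Sesn1, a sestrin that restrains mTORC1, rose from 1.46, 1.26 and 1.38 to 3.54, 3.47 and 3.69, 4.60-fold. The CDK inhibitor Cdkn1a (p21) was at 5.43, 5.46 and 5.56 and 6.44, 6.34 and 6.40, a rise of 0.91 (SE 0.046). All 3 separated the groups. Btg1, Btg2 and Tob1, antiproliferative proteins, rose by 1.57, 1.33 and 1.23, and Mdm2, Ccng1, Ccng2 and Phlda3 by 0.99, 0.95, 0.99 and 1.21. The exceptions were the stress genes Gadd45a, Gadd45b and Gadd45g, which fell by 1.54, 0.88 and 0.88, with Plk2 (-0.97) and Cdkn2c (-0.51). Gadd45a stood at -0.92 with normexp correction.

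Survival and death genes split, 10 higher and 6 lower of 27. Bmf, a BH3-only death protein, rose from -2.58, -2.91 and -2.46 to -0.065, -0.16 and 0.026, 5.98-fold (2.58, SE 0.12). The survival protein Bcl2a1d, an NF-kB target with close paralogs, fell by 1.41, and Bak1 fell by 0.70. The death receptor Tnfrsf10b, whose ligand Tnfsf10 was lower, rose by 0.63, and Bax rose by 0.41.

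The integrated stress response, in which Atf4 raises amino acid transport and synthesis genes, was mostly lower: 22 of 33 fell and 0 rose, with a median of -0.266. Trib3 fell from 5.80, 5.80 and 5.76 to 4.60, 4.70 and 4.49 (-1.19, SE 0.13). Ddit3 (CHOP), Chac1, Ppp1r15a and the amino acid exchanger Slc7a5 fell by 0.87, 0.70, 0.68 and 0.81, and Atf4 by 0.30 (-0.48 with the mean of its probes). In the unfolded protein response, 8 of 24 fell, with Herpud1 at -0.81 and Sel1l at -0.80, and 6 rose, with Hyou1 at 0.39. The endoplasmic reticulum chaperone Hspa5 fell by 0.25.

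Of cytosolic chaperones, Hspa4l rose from 1.28, 1.31 and 1.35 to 3.53, 3.33 and 3.68 and Hsph1, of the same HSP110 family, by 0.69. Hspa1a was well above background only with added NaCl and at least 1.39-fold higher, or 0.65 on the log2 scale with normexp correction. Their cochaperone Dnajb1 fell by 0.33, and 10 of 19 members, with Hspd1, Bag3 and Hspa8 among them, were not called. The list of NRF2 targets and regulators split into 11 higher and 7 lower of 26. Those lower include NRF2 itself (Nfe2l2, -0.31) and its repressor Keap1. Mgst2, a glutathione transferase that also makes leukotriene C4, rose from 4.33, 4.25 and 4.42 to 6.22, 6.36 and 6.44, 4.01-fold. Nqo1 rose by 1.83 (0.92 with normexp correction), heme oxygenase Hmox1 by 0.97 and malic enzyme Me1 by 0.89. Keap1 fell by 0.71 and the targets Prdx1 and Gclm by 0.56 and 0.40, and Txnrd1 and Gsr were not called (-0.025 and -0.060).

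Of 31 proteasome genes 16 fell and none rose, with a median of -0.121 and a range of -0.39 to 0.14. Leave-outs brought this to 10: those of NS + LPS replicate 1 and of HS + LPS replicates 1 or 3. Ribosomal protein genes showed 21 of 32 higher, but with quantile normalization 4 were and the median moved from 0.201 to 0.019. Of 33 ribosome biogenesis genes 19 were not called.

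Among lipid handling genes, the cholesterol exporter Abcg1 rose from 1.56, 1.42 and 1.74 to 3.36, 3.23 and 3.53, 3.48-fold. Lipoprotein lipase Lpl fell from 7.49, 7.42 and 7.44 to 5.74, 5.94 and 5.53, 3.28-fold, and the fatty acid-binding Fabp4 by 1.07. The list had 8 higher and 8 lower of 26, and Nr1h3 (LXR alpha) was not called (0.050). In the lysosome and autophagy list 19 rose and 12 fell of 44. The protease Ctsh rose by 1.22, the autophagy kinase Ulk1 by 0.88 and the phosphoinositide-binding Wipi1 by 1.26 (0.70 with the mean of its probes). Ctsc and the proton pump subunit Atp6v0d2 fell by 0.77 and 0.79. Of iron genes, 9 of 17 rose, with the transferrin receptor Tfrc at 0.51 and the exporter Slc40a1 at 0.32, and the importer Slc11a2 fell by 0.79.

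The RAB small GTPases, which steer vesicle traffic, held the largest rise of any gene above background in both groups. Rab15, which acts on recycling endosomes, was at -0.75, -1.10 and -0.58 in NS + LPS and 6.11, 5.81 and 6.16 in HS + LPS (chromosome 12, 77898991 to 77899050). That is 114-fold higher (6.84, SE 0.35, adjusted p = 3.16e-07). Of the list as a whole, 10 of 34 rose, with Rab4a next at 0.63, and 14 fell, with Rab32, which acts on lysosome-related organelles, at -1.18. Leaving out HS + LPS replicate 3 left 6 higher.

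Osteoclast genes are inducible in RAW264.7 cells. Acp5 (TRAP), a phosphatase of bone-resorbing cells, rose from 2.18, 1.94 and 2.16 to 3.77, 3.77 and 3.84, 3.25-fold. Carbonic anhydrase Car2 and the master factor Nfatc1 rose by 1.05 and 0.81, but the fusion protein Dcstamp fell by 0.39 and Ctsk was not called (0.13). Of 15 members 6 rose and 4 fell. Among matrix genes, Spp1 (osteopontin) rose by 0.59 and Timp1 fell by 0.95 (-0.37 with normexp correction). The list of 32 had 16 members measured, 6 higher and 5 lower. The cystatin F gene Cst7 rose by 1.39, and Serpinb9, an inhibitor of granzyme B, fell by 1.59 (-0.98 with normexp correction).

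Hdc, which makes histamine from histidine, fell from 3.29, 3.26 and 3.23 to 1.24, 1.39 and 1.17, 3.99-fold (-2.00, SE 0.071). The NAD-consuming enzyme Bst1 fell by 1.02 and Kmo, of the kynurenine pathway, by 0.90, in a list with 5 lower and 3 higher of 13. Of clock genes 8 of 13 rose. The core factors Arntl and Clock were not called (0.055 and 0.071).

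Of 25 transcription factors of the macrophage lineage, 10 fell and 9 rose. Gfi1, a repressor known from granulocyte development and from lymphocytes, rose from -1.11, -1.18 and -1.2 to 2.96, 2.71 and 3.02, 16.7-fold (4.06, SE 0.14). Id3, Klf4 and Klf6 fell by 1.18, 0.93 and 0.72, and Cebpa and Bhlhe41 rose by 0.80 and 0.68. The lineage factor Spi1 (PU.1) rose by 0.28, and Cebpb was not called (-0.060).

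**Figure D4:**
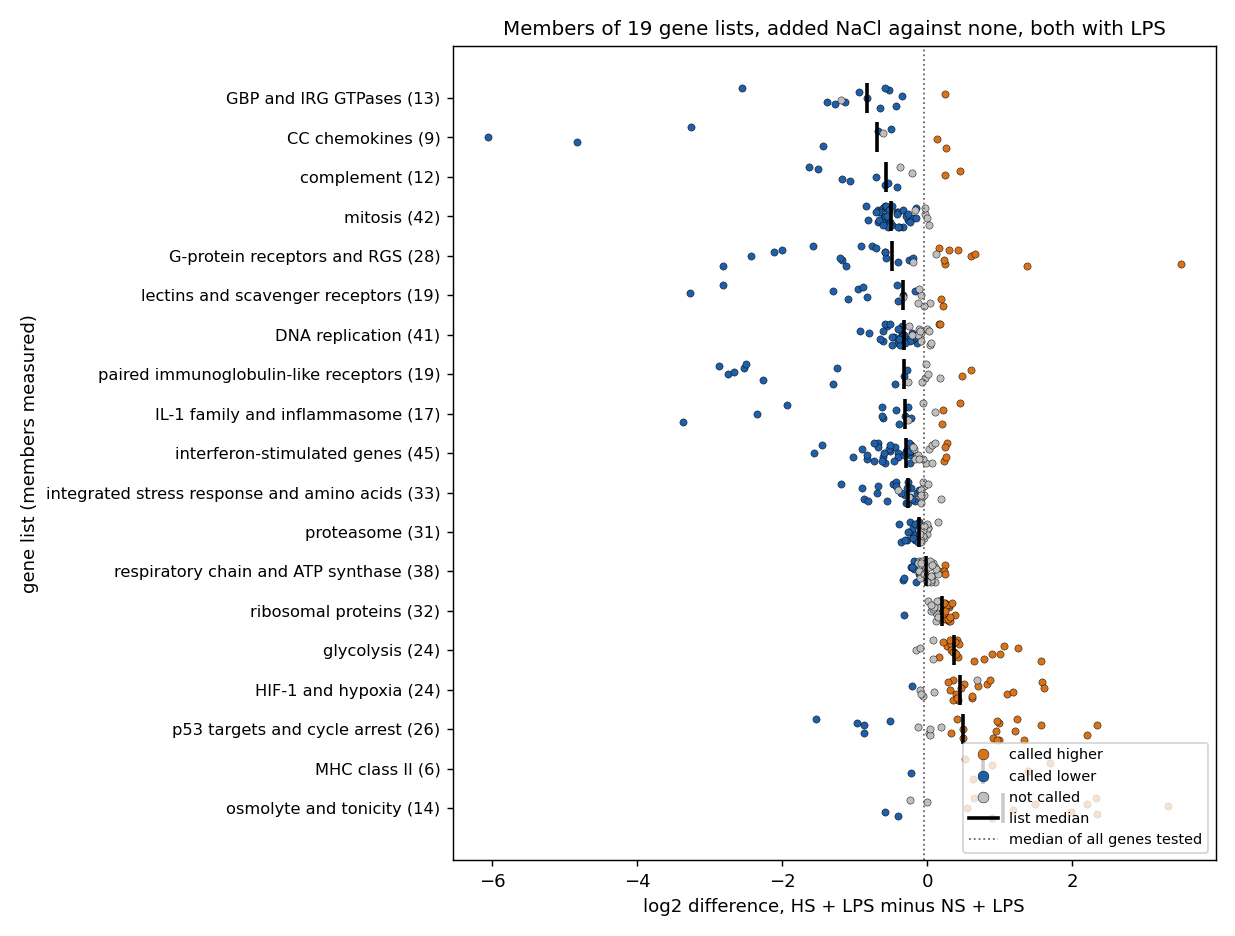
Log2 difference, HS + LPS minus NS + LPS (x axis), of every measured member of 19 gene lists (y axis, number measured in brackets), coloured by call, with the list median as a bar and the median of all genes as a dotted line. The GBP, chemokine, complement and mitosis lists have medians of -0.827, -0.687, -0.563 and -0.504, and the class II and osmolyte lists of 0.761 and 1.04.

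Outside these lists, the largest rises among genes above background in both groups included several not usually associated with macrophages. Myom1, a protein of the sarcomere M band, rose from -2.27, -2.25 and -2.39 to 1.88, 1.62 and 2.32 (4.24, SE 0.16). The sulfotransferase Chst1 rose by 3.94, Agmo, which cleaves ether lipids, by 3.93 and Crtam, an adhesion receptor of lymphocytes, by 3.73. Lyzl4, a lysozyme-like gene, rose from -3.14, -3.15 and -3.17 to 0.47, 0.18 and 0.56 (3.56, SE 0.12). Tnxb (tenascin X), the serine-incorporator Serinc2, the kinase Mylk2, the bikunin precursor Ambp, the tight junction gene Cldn11, the terminal transferase Dntt and the axon guidance receptor Robo3 rose by 3.53, 3.36, 3.36, 3.36, 3.28, 3.14 and 2.96. These are high rises from low or moderate levels on all 3 arrays. No muscle marker of the list checked was above background.

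The largest falls outside the lists were of Lix1 (-3.25), Wfdc17, a small secreted inhibitor of macrophage activation (-2.51), the zinc finger gene Zfp811 (-2.66), Gtsf1 (-2.47), Clec2d (-2.34) and the paired receptor Pilrb2 (-2.51, or -1.60 with normexp correction). Wfdc17 had levels of 6.20, 6.29 and 6.16 in NS + LPS and 3.74, 3.87 and 3.52 in HS + LPS. Of 13801 genes tested, at-least folds could be given for 183 genes called lower and 51 called higher. Among all genes, 4328 (31.4%) were called lower and 3611 (26.2%) higher. Genes with such a fold passed the filter through the brighter group, so their direction follows from that selection and is not a result about them. The HS + LPS arrays were the dimmer ones, and the part of brightness in these counts was not tested. Among the largest of these folds were those of the glutamate transporter Slc17a6 (at least 10.0-fold higher), Scel (at least 8.97-fold higher), Ranbp3l (at least 5.25-fold higher), Pilrb1 (at least 7.02-fold lower) and the DNA sensor family member Ifi211 (at least 5.78-fold lower). With normexp correction their log2 differences were smaller, at 2.36 for Slc17a6, 1.78 for Scel, 1.60 for Ranbp3l, -1.19 for Pilrb1 and -1.09 for Ifi211.

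The same salt contrast without LPS (HS minus NS) is set beside these differences, and the interaction, the salt difference with LPS minus that without, tests whether they differ. It was called for 4996 of 13801 genes (36.2%). The interaction rests on the same HS + LPS slide and cannot be told apart from it. The HS and NS arrays all shared a slide and a scan day. No NS or HS array had Il6, Csf2, Il1b or Ccl7 well above background, so their falls are measured with LPS only, that of Ccl7 as a bound. Lcn2, above background on all 12 arrays, differed by -0.13 (adjusted p = 0.293) without LPS and -2.45 with it, an interaction of -2.32 (SE 0.13, adjusted p = 3.22e-06). Cxcl10 differed by -0.065 (adjusted p = 0.378) and -1.34, with an interaction of -1.28 (SE 0.076). Nos2 differed by 0.16 (adjusted p = 0.366) and 2.64, with an interaction of 2.48 (SE 0.19). These 3 genes were called for salt with LPS and not without it, and the test of that difference was called for each. The Tnf difference was -0.061 without LPS and 0.20 with it (interaction 0.26, SE 0.061).

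Other genes differed in both settings. The Ccl2 difference was -2.32 without and -4.83 with LPS (interaction -2.52, SE 0.20), that of Clec7a was -1.49 and -3.27, and that of Cd36 -2.02 and -2.82. The paired receptor Pirb fell by 2.25 and 2.51, with an interaction that was not called (-0.26, adjusted p = 0.333). Rab15 rose by 6.18 and 6.84, and its interaction was not called either (0.66, SE 0.49). Akr1b3 rose by 1.10 and 2.33 (interaction 1.22), Slc6a12 by 2.74 and 3.32 (0.59) and Nfat5 by 0.83 and 0.90 (0.061, not called). The osmolyte list median was 0.498 without and 1.04 with LPS. The medians without and with LPS of the other 18 lists drawn by member are set side by side here, with no test of a list, beside 0.017 and -0.043 for all genes. They were below -0.2 in both settings for GBP and IRG GTPases (-0.377 and -0.827), CC chemokines (-0.362 and -0.687), complement (-0.717 and -0.563), G-protein receptors (-0.381 and -0.488), lectins and scavenger receptors (-0.286 and -0.339), paired receptors (-1.052 and -0.317), interferon-stimulated genes (-0.402 and -0.299) and the integrated stress response (-0.252 and -0.266). Other lists had medians within 0.2 of 0 without LPS and at least 0.303 from 0 with it. These were glycolysis (0.06 and 0.373), HIF-1 and hypoxia genes (-0.056 and 0.444), p53 targets (-0.14 and 0.488) and mitosis (0.074 and -0.504). DNA replication (0.039 and -0.322), the interleukin 1 family (0.036 and -0.303) and MHC class II (-0.165 and 0.761) were also among them. The remaining pairs were those of the proteasome (-0.018 and -0.121), the respiratory chain (0.041 and -0.013) and ribosomal proteins (0.125 and 0.201).

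**Figure D5:**
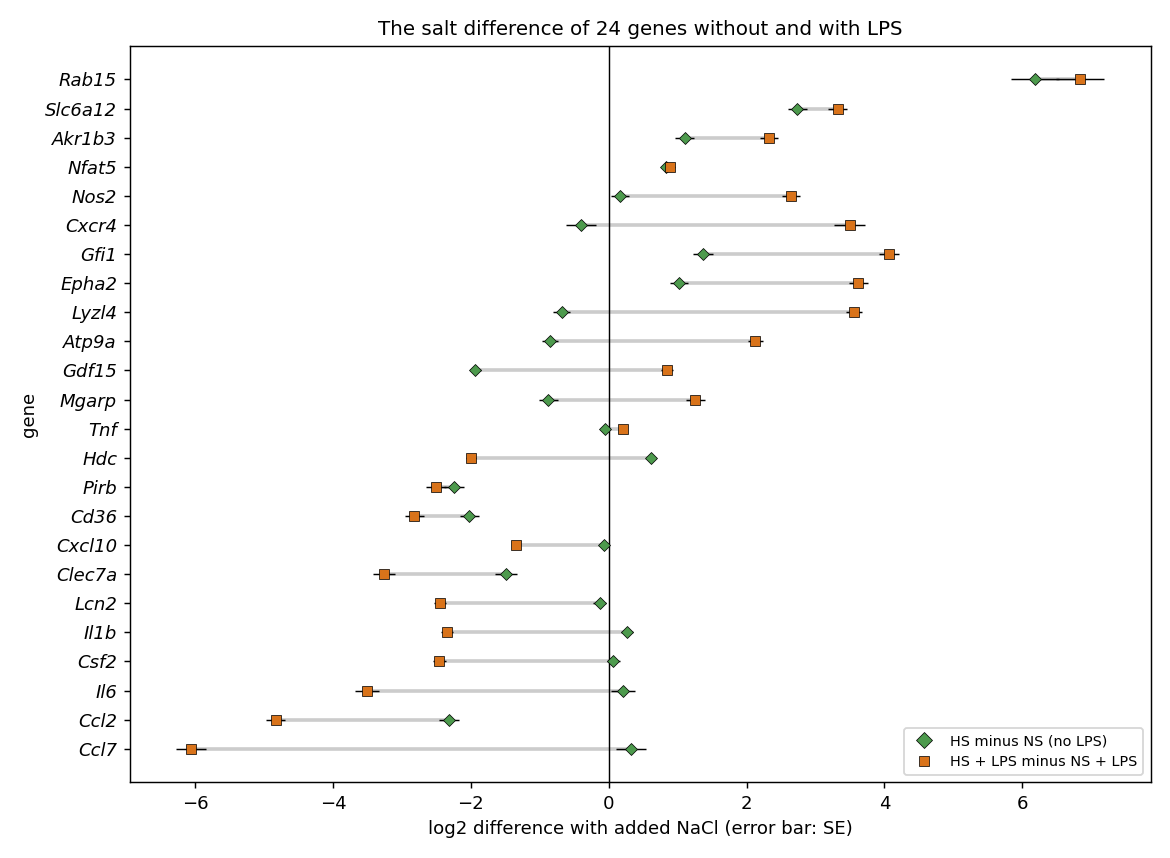
Log2 difference with added NaCl (x axis, error bar SE) of 24 genes (y axis) without LPS (diamonds, HS minus NS) and with LPS (squares, HS + LPS minus NS + LPS), 3 arrays a group. The Pirb and Nfat5 points lie close together, those of Lcn2, Cxcl10 and Nos2 lie apart, and Lyzl4, Atp9a, Gdf15, Mgarp and Hdc change sides. Il6, Csf2, Il1b and Ccl7 were not well above background on any array without LPS. Ccl7 was not well above background on any HS + LPS array either.

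For 675 genes (4.89%) the salt difference was called in opposite directions without and with LPS. The 8 with the largest interaction that were above background in every group are given. Lyzl4 fell by 0.68 without LPS and rose by 3.56 with it (interaction 4.24, SE 0.17). The flippase Atp9a fell by 0.86 and rose by 2.13, but with the mean of its probes the rise was 0.62 and not called. Gdf15 fell by 1.93 and rose by 0.84, and Mgarp, a mitochondrial protein linked to hypoxia, fell by 0.88 and rose by 1.25. Prkar2b, a regulatory subunit of protein kinase A, and the receptor Notch4 fell by 0.47 and 0.39 and rose by 1.75 and 1.65. The unnamed transcript 1600014C23Rik fell by 0.70 and rose by 2.46. Hdc went the other way, rising by 0.61 without LPS and falling by 2.00 with it.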

How the data were processed

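RNA was measured on 12 mouse 1-colour Agilent arrays (design 028005), 3 in each of the 4 groups. The deposited scanner values are, per the file headers, linear intensity in arbitrary units, background subtracted and detrended by Feature Extraction 10.7.3.1. The flags for outlier, saturated and well-above-background spots are, per the file headers, 0 or 1 a spot and of another kind than intensity. The value table deposited by the authors also holds intensity, with a median of 28.8 on each array, and was used as an alternative. Its normalization is not given in the sources used here.

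Levels were computed as log2(processed signal) minus the log2 75th percentile over 59305 non-control spots. Flagged outliers were left out, 10 of 55681 probes were dropped, and a probe had to be well above background on all arrays of some group. Gene names are those of the array files, with 27509 of 32982 probes with a symbol matched to a RefSeq accession. The brightest probe stood for each gene. Probe coordinates are on mm9, and exon or intron was not analysed here. One linear model over all 12 arrays (R 4.3.3 with limma 3.58.1, 2-sided, Benjamini-Hochberg over 13801 genes, 8 residual degrees of freedom) gave the differences, called at an adjusted p under 0.05. On simulated data with 200 of 13801 genes changed, the test recovered 75% of log2 differences of 0.5 and 91% of 1, with 5 false calls. The simulation drew independent noise for each gene, with no slide, scan day or brightness difference between groups. In the data 57.5% of genes were called and HS + LPS had its own slide and scan day, so the simulated false calls do not carry over.

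The genes, lists and tests were chosen with earlier results of these data known. Named genes are the largest rises, falls and at-least folds, the list members that changed most, a set of index genes and the 8 genes with opposite salt differences, and some of these are left out. Alternatives were normexp background correction (offset 50), quantile and cyclic loess normalization, the deposited table, other filters, the mean of probes, an intensity trend, the groups compared alone, array weights, replicate and slide blocks, and leaving out each array. Promoters are RefSeq's (GRCm38.p6). Tables were read with data.table (version 1.17.8), blocks fitted with statmod 1.5.0, and figures drawn with matplotlib 3.10.9 in Python 3.11.15.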

Additional observations from a re-analysis of the deposited data

Results flagged for a closer look

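The salt difference with LPS was unlike that without LPS by the interaction test for 4996 of 13801 genes at an adjusted p under 0.05 in limma, and each value below is such an interaction on the log2 scale. Among genes called in opposite directions without and with LPS, it was 4.24 for Lyzl4, 3.16 for 1600014C23Rik, 2.99 for Atp9a, 2.78 for Gdf15, 2.22 for Prkar2b, 2.13 for Mgarp, 2.04 for Notch4 and -2.61 for Hdc. Among the index genes it was 2.48 for Nos2, 1.22 for Akr1b3, 0.59 for Slc6a12 and 0.26 for Tnf. It was negative for Ccl2 (-2.52), Ccl7 (-6.39), Il6 (-3.72), Il1b (-2.62), Lcn2 (-2.32), Clec7a (-1.78), Cxcl10 (-1.28) and Cd36 (-0.80). Ccl7 was above background in NS + LPS only, and Il6 and Il1b only with LPS, so their values rest in part on signals not well above background.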

How the results depend on the processing

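The counts of genes called higher and lower stayed within 1.5 times the reported 3611 and 4328 under every alternative run, and so did the counts of the interaction. Leaving out each of the 6 arrays in turn gave 3155 to 3406 genes higher and 3820 to 4166 lower. The number at least 2-fold lower, 467 as reported, was 126 with normexp correction, 307 with quantile normalization, 270 with cyclic loess, 301 with the deposited table, 711 with no filter and 147 among genes above background on all 12 arrays. The number at least 2-fold higher was 236 with normexp correction against 390. Higher genes made up 45.5% of those called, 48.8% with normexp, 49.6% with quantile and 51.4% with cyclic loess. The cause of these shifts was not tested.

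Some smaller differences turned. With quantile normalization and the deposited table, Actb went from 0.19 to -0.047 and -0.047, and Gapdh stood at 0.081 and 0.080 (not called). Hif1a was -0.18 (not called) with the mean of its probes. List medians that turned with normexp were those of AP-1 (-0.0076), integrin (-0.0058), NRF2 (-0.046), matrix (0.036) and kynurenine (0.090) genes. Prostaglandin genes turned with quantile normalization (0.0048) and the deposited table (0.0044). With no filter, AP-1 (-0.048), matrix (0.023) and kynurenine (0.033) genes turned. On genes above background on all 12 arrays, cytokines (0.20), SOCS and DUSP (0.020), stefins and serpins (0.042) and kynurenine (0.033) genes turned. AP-1 genes turned with the mean of probes (-0.068). Leaving out 1 array gave -0.011 (without NS + LPS replicate 3) to 0.059 for AP-1 genes and -0.014 (without HS + LPS replicate 1) to 0.095 for ion transport genes.

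Same-numbered arrays did not deviate together (correlations of -0.031, -0.079 and 0.0051), which gave no sign that the numbers pair the arrays. With 3 arrays a group, these correlations cannot show that no culture or day was shared. With the replicate block 3430 genes were higher, 4151 lower, 390 and 464 at least 2-fold higher and lower, and 4592 were called in the interaction. With slide as a random block (estimated correlation -0.017) the counts were 3655 and 4385, but no fit can separate HS + LPS from its slide and scan day. Dim genes are the limit of these arrays, since a level not well above background gives only a bound.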

Other observations

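Probes with no gene symbol were fitted apart. Of 8307 that passed the filter, 1012 were called higher and 2243 lower with added NaCl in LPS-treated cells, 144 and 529 of them at least 2-fold. Beside these stand 3611 (26.2%) higher and 4328 (31.4%) lower of 13801 genes, 390 (2.83%) and 467 (3.38%) at least 2-fold. The HS + LPS arrays were the dimmer ones, and a probe could pass the filter through the brighter group only. The shares of these probes called higher and called lower were both below those of the genes. Only the share at least 2-fold lower was above that of the genes. The part of brightness and filter in the excess of lower over higher probes was not tested. The probes with no gene symbol were not named.

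Of 3936 genes with several probes, 156 had 1 probe called higher and another called lower with added NaCl in LPS-treated cells, and the direction given for such a gene rests on its brightest probe.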
